A study of Mus musculus with 17 samples.

Results

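The ion exchange and cotransport solute carriers move sodium, chloride, bicarbonate, potassium, calcium or sulfate across cell membranes by coupling one ion to another. They were found among the 23719 rows of the raw count table by gene symbols that begin with Slc4a, Slc8a, Slc9a, Slc12a, Slc24a or Slc26a followed by a digit. Described here are 44 carriers. Another 3 genes with such symbols (Slc4a1ap, Slc9a3r1 and Slc9a3r2) encode proteins that bind a carrier and were named for it, so they were counted apart.

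The colon was sequenced from mice of a Gulf War Illness (GWI) model, in which an anti-nerve-agent pretreatment given to soldiers is given to animals. All mice were male C57BL/6, 32 to 34 weeks old. The 8 GWI mice received pyridostigmine bromide (PB), an acetylcholinesterase inhibitor, at 2 mg/kg in their water for 7 days and were then kept without it until day 30. The 9 control mice received water alone. Each library was made from bulk colon tissue of 1 mouse and held between 16293537 and 20741212 counts, with a median of 17761682 in control and 17428511 in GWI colons.

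In the colon, salt is absorbed when apical sodium/hydrogen exchangers and chloride/bicarbonate exchangers of surface epithelial cells work side by side, so that sodium and chloride enter while acid and base leave. Secretion runs the other way: a basolateral cotransporter loads crypt cells with chloride, which leaves through apical channels. Basolateral bicarbonate carriers and potassium/chloride cotransporters balance cell pH and volume, and sodium/calcium exchangers act mainly in excitable and contractile cells.

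Several libraries stood apart in genes that mark gut position and tissue makeup, and their values are given before the carriers. Levels are given as CPM, counts scaled to the size of each library after TMM normalisation. The summed CPM of the distal colon Hox genes, of which Hoxa13 was the most abundant, was 129 in Control 1 and 87.3 in GWI 5, followed by 17.3 in GWI 4 and at most 9.60 in the other mice. Hoxa13 and Hoxb13 carried the high sums of Control 1 and GWI 5. Hoxd13 was highest in Control 2 (2.56 CPM), with 2.09 CPM in Control 1 and 0.568 CPM in GWI 5. The summed small intestine genes stood at 871 CPM in Control 7 and 316 in Control 6, and between 96.9 and 162 in the other mice. Fabp6, an ileal bile acid binding protein, made up much of that sum in Control 7 (314 CPM) and Control 6 (119 CPM). Control 7 was also highest in Enpep (197 CPM), Sis (193 CPM) and Apoa1 (133 CPM), but not in Alpi (18.4 CPM) or Rbp2 (15.0 CPM). In Control 6, Sis (51.2 CPM) was below Control 8 (82.7 CPM). Lct and Apoa4 were scarce in every mouse. Control 9 had the lowest TMM factor, 0.799. Whether the pieces of colon were cut at the same place is not given in the labels, and the part these differences play in the carrier results was not tested beyond the fits without those libraries.

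The labelled tissue was present by its markers. Colon epithelium genes were abundant in each mouse, with Krt8 the most abundant (mean 4613 CPM), and their sum ran 10743, 14087 and 20716 CPM in control and 14398, 18725 and 21019 CPM in GWI colons (lowest, median, highest). Of 11 such genes, 5 were higher in GWI and none lower at an adjusted p under 0.05 (edgeR quasi-likelihood test, Benjamini-Hochberg over all tested genes), and the median of their log2 fold changes was 0.40. Smooth muscle genes went the other way: 7 of 10 were lower, none was higher, and the median log2 fold change was -0.91. Over all tested genes 13.4% were higher and 13.5% lower. The smooth muscle sum, led by Myh11, ran 3690.0, 11584 and 23923 CPM in control and 3658, 5142 and 11832 CPM in GWI colons. The groups therefore overlapped in both sums. The 5 pancreas genes were near 0, and Cpa1 had no count in any mouse. In bulk tissue, fewer cells of a type and less RNA per cell cannot be told apart, and the part that tissue makeup plays in the carrier values was not separated from the exposure.

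Of the 44 carriers, 32 had enough counts to be tested and 12 did not. Among the 32, 6 were higher in GWI colons (18.8%, against 13.4% of all 14146 tested genes) and 2 were lower (6.25%, against 13.5%), by an adjusted p under 0.05. The other 24 passed in neither direction. Over these 32 genes the median log2 fold change was -0.15, beside -0.056 over all tested genes, with 12 positive and 20 negative. The higher genes were Slc12a7, Slc9a8, Slc4a2, Slc12a9, Slc26a2 and Slc9a2, and the lower ones Slc26a6 and Slc24a3. The count of 2 lower genes depended on single mice: it was 0 without Control 6, GWI 1, GWI 3, GWI 4, GWI 6 or GWI 7, it was 1 without Control 2, 3, 4 or 7, and it was 4 without Control 8 or Control 9. The count of higher genes ran from 4 to 8 over the same 17 fits. The shares of all genes moved too, from 10.4% (without GWI 7) to 17.9% (without Control 1) higher and from 9.21% to 16.3% lower, with the ends in the same fits. With an epithelium score (the mean log2 CPM of the colon epithelium list in each mouse) as a covariate, 3 carriers were higher and 1 lower, where 3.01% and 2.09% of all genes were. With a smooth muscle score made the same way, 8 were higher and 3 lower, where 18.1% and 19.8% of all genes were.

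The call rule of the study (unadjusted p under 0.05 and a log2 fold change over 1 in size) gave smaller numbers. On the edgeR values 1 carrier was higher by it, Slc26a1 (0.650% of all genes), and 1 was lower, Slc26a6 (1.77% of all genes). On values of the DESeq2 Wald test, which the study used, 2 were higher, Slc26a1 and Slc9a3 (0.763% of all genes), and 0 lower (1.87% of all genes). With an adjusted p under 0.05 in the DESeq2 Wald test, 9 carriers were higher and 3 lower, where 15.3% and 17.3% of all genes were. For 2 carriers, Slc12a7 and Slc9a8, every GWI mouse lay above every control mouse, as held for 1.83% of all tested genes. The members were picked with earlier results known, so these shares describe the list and do not test it.

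**Figure D1:**
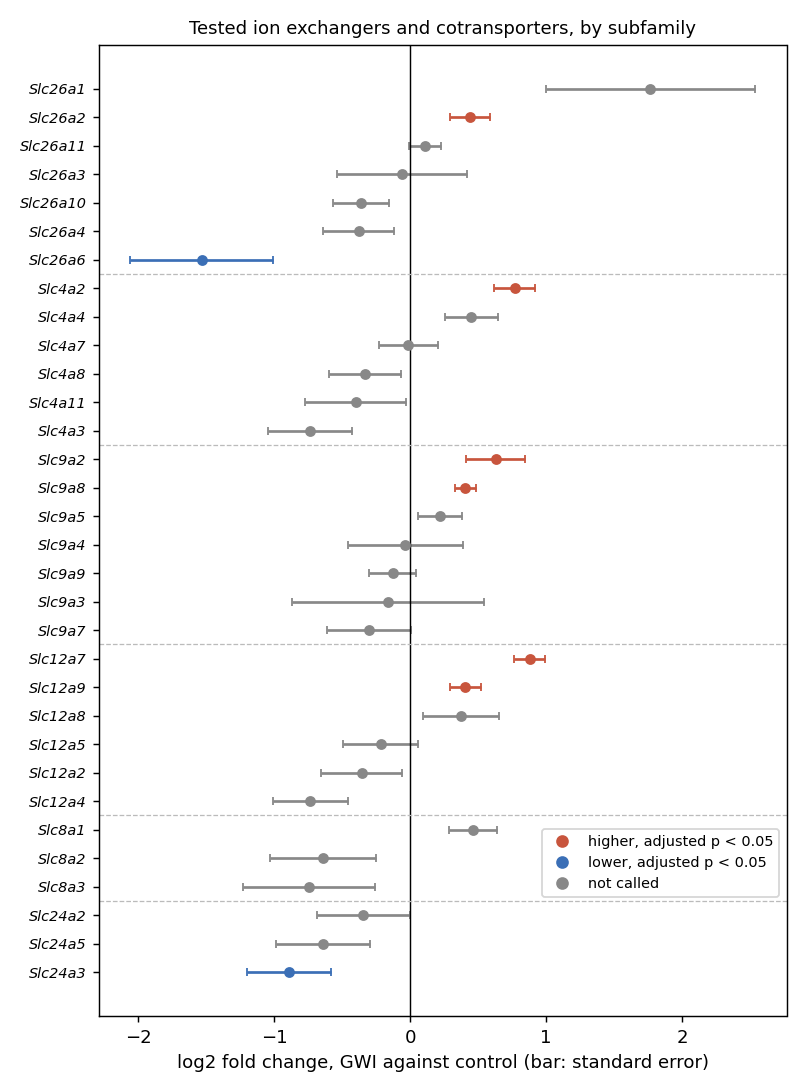
Log2 fold change of GWI against control colons (horizontal axis) for the 32 tested carriers, one row a gene, with dashed lines between subfamilies. Points are edgeR estimates and bars standard errors derived from the F statistic of the test. The 6 red points are called higher and the 2 blue points lower. The bars are longest for Slc26a1, Slc9a3, Slc26a6, Slc8a3 and Slc26a3.

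The main apical chloride/bicarbonate exchanger of the colon is Slc26a3, also called DRA (chr12:31390871-31473917, + strand, GRCm38). It stood at 227, 402 and 2229.7 CPM in control colons (lowest, median, highest) and at 181, 449.9 and 1371 CPM in GWI colons. The groups overlapped almost entirely, and the spread within each was wide. Control 1 was far above the other controls, of which the next was Control 9 at 823 CPM, and in the GWI group GWI 5 was followed by GWI 2 at 1022 CPM and GWI 6 at 791 CPM. Between groups, the log2 fold change of Slc26a3 was -0.061 with a standard error (SE) of 0.48 (adjusted p = 0.936). Its sign was carried by single mice: it was 0.50 without Control 1 (adjusted p = 0.309) and 0.077, 0.050 and 0.047 without GWI 1, GWI 3 and GWI 8. Aqp8, a water channel of surface colonocytes, was also highest in Control 1 (1934 CPM) and GWI 5 (1047 CPM), with GWI 2 and GWI 6 (491 CPM) next.

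A second apical exchanger, Slc26a6 (chr9:108853283-108913049, + strand), carries chloride, bicarbonate and oxalate and is best known from the small intestine. It was scarce: 1.36, 2.34 and 22.7 CPM in control colons against 1.26, 1.75 and 2.61 CPM in GWI colons. Control 7 (22.7 CPM) and Control 6 (9.61 CPM) stood above all other mice, which lay between 1.26 and 2.93 CPM in both groups. Slc26a6 was lower in GWI colons by this measure, with a log2 fold change of -1.53 (SE 0.52, adjusted p = 0.0382). Control 7 and Control 6 were also the mice with the highest Fabp6. Without Control 7 the log2 fold change was -0.77 (adjusted p = 0.105), and without Control 6 it was -1.38 (adjusted p = 0.069). With both left out, a comparison chosen after seeing the data, it was -0.25 (adjusted p = 0.366). The call was also lost without GWI 1, 3, 4, 5, 6, 7 or 8, with adjusted p between 0.0531 and 0.0687, and in the DESeq2 Wald test, which gave -0.73 (adjusted p = 0.0892). It was lost as well with an epithelium score as a covariate (-0.28, adjusted p = 0.803) and with mice of the same number compared within a block (-0.84, adjusted p = 0.256).

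Slc26a2 carries sulfate in exchange for chloride or other anions and supplies sulfate for mucins and matrix. Its levels were 463, 614 and 1048.5 CPM in control and 724, 888 and 1045 CPM in GWI colons. Of the 9 controls, 7 lay below all GWI mice, Control 2 lay among them at 794 CPM, and Control 1 was the highest mouse of either group. The gene was higher in GWI colons by a log2 fold change of 0.44 (SE 0.15, adjusted p = 0.0326). The call was lost without Control 3, 4, 5, 6 or 7 or GWI 2, 3, 4, 6 or 7, with adjusted p between 0.05001 and 0.0676. It was also lost with upper-quartile scaling (0.35, adjusted p = 0.0563) and with mice of the same number compared within a block (0.50, adjusted p = 0.0696), and most clearly with the epithelium score as a covariate (0.13, adjusted p = 0.566).

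The other tested Slc26 genes were low, and none was called in the edgeR fit with all mice. Slc26a1, a sulfate and oxalate carrier, ran 0.156, 0.497 and 3.06 CPM in control and 0.357, 0.706 and 12.8 CPM in GWI colons. Most mice of both groups were under 1 CPM, while GWI 2 (12.8 CPM) and GWI 6 (9.17 CPM) stood above every control. Its log2 fold change of 1.77 (SE 0.77, adjusted p = 0.0925) was 1.07 without GWI 2 (adjusted p = 0.292) and 1.38 without GWI 6 (adjusted p = 0.205). It passed in the DESeq2 Wald test (1.76, adjusted p = 0.0466), and, chosen after seeing the data, with Control 1, 6, 7, 9 and GWI 5 left out (3.22, adjusted p = 0.0193). Exons of Slc26a1 overlap exons of Idua on the opposite strand, and the strand setting of the counting is not given in the sources used here. Slc26a11, Slc26a4 (pendrin, a chloride, iodide and bicarbonate exchanger) and Slc26a10 had log2 fold changes of 0.11, -0.38 and -0.36. Slc26a5, Slc26a7, Slc26a8 and Slc26a9 were not tested, and the highest of them in any mouse was Slc26a7 at 0.632 CPM in Control 1.

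Among the sodium/hydrogen exchangers, Slc9a3 (NHE3; chr13:74121457-74169442, + strand) is the apical exchanger best known for intestinal sodium absorption. It stood at 15.4, 25.4 and 610.4 CPM in control colons and at 44.3, 63.8 and 189 CPM in GWI colons. In 8 of 9 controls it lay between 15.4 and 41.0 CPM, below each of the 8 GWI mice, while Control 1 held more than any other mouse of either group. GWI 5 was the highest GWI mouse, ahead of GWI 4 at 99.7 CPM. These 3 mice were also the 3 with the highest summed distal colon Hox genes. In GWI 4 that sum was mostly Hoxa13 (16.1 CPM). Its Hoxb13 (0.976 CPM) and Hoxd13 (0.287 CPM) lay within the range of the other mice. With all mice, the log2 fold change of Slc9a3 was -0.16, with an SE of 0.71 (adjusted p = 0.879).

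The result for Slc9a3 turned on Control 1. Without it the log2 fold change was 1.63 (adjusted p = 0.000481). Leaving out any other single mouse gave no call, and with Control 1 and GWI 5 both out, chosen after seeing the data, the value was 1.33 (adjusted p = 0.000412). The DESeq2 Wald test, which replaces counts it takes for outliers, gave 1.5 (adjusted p = 5.85e-06) with all libraries. With the smooth muscle score as a covariate it was 1.38 (adjusted p = 0.175), with the replicate block 1.14 (adjusted p = 0.173), and with the epithelium score -1.04 (adjusted p = 0.153). The direction of Slc9a3 in GWI colons is therefore given here only together with the mice it was computed from.

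Slc9a2 (NHE2; chr1:40680574-40769273, + strand) is another apical sodium/hydrogen exchanger of the colon. Its levels were 188, 299 and 711 CPM in control and 336, 532 and 642 CPM in GWI colons. Control 1 was again the highest mouse, and of the other 8 controls 6 lay below all GWI mice, while Control 2 at 409 CPM and Control 5 at 357 CPM fell among them. Slc9a2 was higher in GWI colons, with a log2 fold change of 0.63 (SE 0.22, adjusted p = 0.041). The call held without Control 1 (adjusted p = 0.00121), Control 2 or GWI 1, and was lost without any 1 of the other 14 mice (Control 3 to 9 and GWI 2 to 8), with adjusted p between 0.0524 and 0.0796. It was lost too with upper-quartile scaling (0.54, adjusted p = 0.0569), with no filter on low counts (0.62, adjusted p = 0.0529), with the replicate block (0.72, adjusted p = 0.0777) and with the epithelium score (0.093, adjusted p = 0.766).

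**Figure D2:**
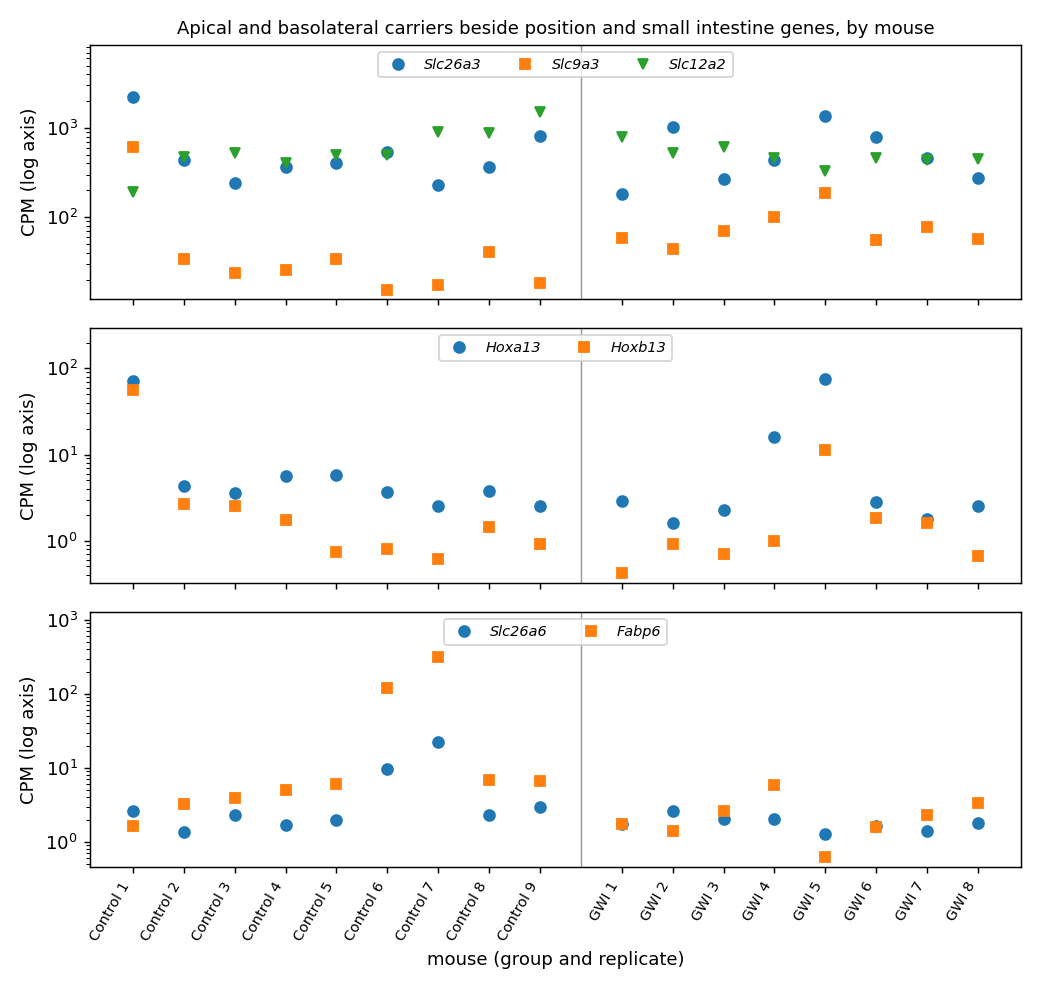
CPM of each mouse on log axes, controls to the left of the vertical line and GWI mice to the right. The top panel shows Slc26a3, Slc9a3 and Slc12a2, the middle panel Hoxa13 and Hoxb13, and the bottom panel Slc26a6 and Fabp6. Control 1 is highest in Slc9a3 (610.4 CPM) and Slc26a3 (2229.7 CPM) and lowest in Slc12a2, and Control 6 and Control 7 are highest in both genes of the bottom panel.

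Slc9a8 (NHE8; chr2:167421712-167477000, + strand), found at the Golgi and at the apical membrane of gut epithelium, differed with little spread. Its levels were 37.7, 45.9 and 49.4 CPM in control and 49.7, 58.4 and 69.9 CPM in GWI colons. Each GWI mouse was above each control, with GWI 5 only just above Control 5. Slc9a8 was thus higher by a log2 fold change of 0.40 (SE 0.077, adjusted p = 0.00203). The call held in all 17 fits without 1 mouse and with each other scaling, filter, model and test, with adjusted p up to 0.0407, the last with the epithelium score.

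Slc9a4, Slc9a5, Slc9a7 and Slc9a9 passed in neither direction. Slc9a5, Slc9a9 and Slc9a7, of which the last 2 serve endosomes and the Golgi, had log2 fold changes of 0.22, -0.13 and -0.31. Slc9a4 (NHE4), known from gastric parietal cells, was under 2 CPM in each mouse and had a log2 fold change of -0.036. With single mice left out, the estimate for Slc9a4 was positive in some fits. The scaffold protein genes named for NHE3 also gave no call in the edgeR fit with all mice: Slc9a3r1 (NHERF1) had 142, 303 and 642 CPM in control and 245, 425 and 545 CPM in GWI colons, with a log2 fold change of 0.49 (adjusted p = 0.121). Control 1 was once more the highest, and without it Slc9a3r1 was at 0.71 (adjusted p = 0.0104). It passed too with the smooth muscle score (1.02, adjusted p = 0.00124), while the epithelium score gave -0.24 (adjusted p = 0.303). Slc9a3r2 (NHERF2) had a log2 fold change of -0.31 (adjusted p = 0.204), and Slc4a1ap, a kanadaptin gene, one of -0.072 (adjusted p = 0.478).

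Chloride enters colonic cells from the blood side through Slc12a2 (NKCC1), the sodium/potassium/chloride cotransporter of secreting crypt cells. It stood at 191, 504 and 1498 CPM in control and at 328, 458 and 782 CPM in GWI colons. The GWI range lay inside the control range, whose ends were Control 1 at the bottom and Control 9 at the top. The log2 fold change was -0.36 (SE 0.30, adjusted p = 0.370), and it was -0.095 without Control 9 and -0.46 without Control 1. The mice with the most Slc26a3 and Slc9a3 in each group, Control 1 and GWI 5, were those with the least Slc12a2. With the smooth muscle score as a covariate the value was -0.81 (adjusted p = 0.00362), and with the epithelium score it was 0.74 (adjusted p = 0.0629).

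Of the potassium/chloride cotransporters, which let chloride and potassium leave the cell together, Slc12a7 (KCC4; chr13:73733094-73816754, + strand) gave the smallest adjusted p of all carriers. Its levels were 41.9, 70.6 and 86.6 CPM in control and 113, 121 and 144 CPM in GWI colons. The groups did not overlap: the lowest GWI mouse, GWI 5, was above the highest control, Control 2. Slc12a7 was higher by a log2 fold change of 0.88, or 1.84-fold, with an SE of 0.12 and an adjusted p of 0.000274. Over the fits without 1 mouse, the value ran from 0.82 to 0.93 and adjusted p from 6.32e-05 to 0.000951. It was 0.57 with the epithelium score (adjusted p = 0.0201) and 0.99 with the smooth muscle score (adjusted p = 0.000166).

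Slc12a4 and Slc12a5, also potassium/chloride cotransporters, gave no call. Slc12a4 (KCC1), present in most cell types, had 4.74, 12.6 and 22.6 CPM in control and 4.87, 7.37 and 13.3 CPM in GWI colons. The groups overlapped, with Control 9 the lowest mouse and Control 6 and Control 1 the highest. Its log2 fold change was -0.73 (SE 0.28, adjusted p = 0.0564), which passed the threshold without Control 8 (adjusted p = 0.0373), Control 9 (0.0155), GWI 5 (0.035) or GWI 8 (0.0308). It passed also with upper-quartile scaling (-0.83, adjusted p = 0.0344) and in the DESeq2 Wald test (-0.74, adjusted p = 0.0271), and with the smooth muscle score it was 0.010 (adjusted p = 0.957). Slc12a5 (KCC2), a neuronal gene, stayed under 1.5 CPM in each mouse, with a log2 fold change of -0.22.

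Slc12a9, an orphan member of the same subfamily (chr5:137314558-137333597, - strand), was among the genes called higher. It ran 8.78, 13.2 and 17.5 CPM in control and 14.6, 18.4 and 19.7 CPM in GWI colons. In 5 of 8 GWI mice it was above every control, and the other 3, GWI 2, GWI 6 and GWI 8, lay below Control 6, the highest control. Slc12a9 was higher by a log2 fold change of 0.41 (SE 0.12, adjusted p = 0.0165), and adjusted p stayed under the threshold in all 17 fits without 1 mouse. The call was lost with upper-quartile scaling (0.31, adjusted p = 0.061) and with the epithelium score (0.34, adjusted p = 0.153). Slc12a8 had medians of 78.2 CPM in control and 107 CPM in GWI colons and a log2 fold change of 0.37 (adjusted p = 0.321). The renal cotransporters Slc12a1 (NKCC2) and Slc12a3 (NCC) had at most 6 counts in any mouse and were not tested.

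**Figure D3:**
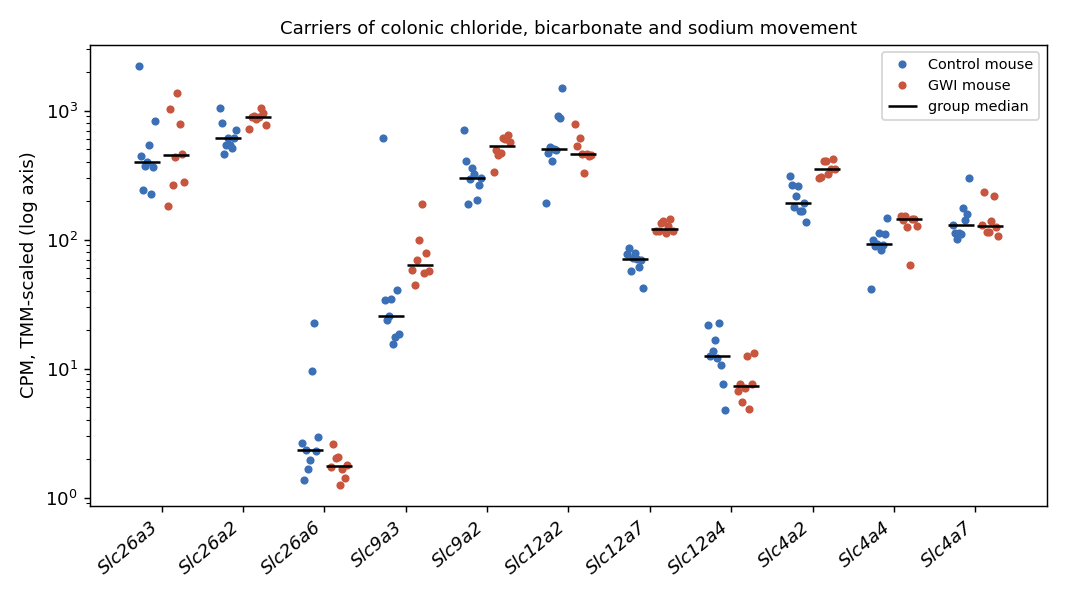
CPM of 11 carriers of colonic chloride, bicarbonate and sodium movement on a log axis, with one point a mouse (blue control, red GWI) and black lines at the group medians. The groups are apart for Slc12a7, and the single high control in Slc9a3, at 610.4 CPM, and in Slc26a3, at 2229.7 CPM, is Control 1.

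Bicarbonate and chloride also cross the basolateral membrane through the Slc4 subfamily. Slc4a2 (AE2; chr5:24423837-24440950, + strand), the chloride/bicarbonate exchanger there, stood at 137, 193 and 311 CPM in control and at 302, 353 and 423 CPM in GWI colons. In 6 of 8 GWI mice it was above every control; GWI 1 and GWI 2 lay just below Control 1, the highest control. Slc4a2 was higher in GWI colons by a log2 fold change of 0.77, or 1.70-fold (SE 0.15, adjusted p = 0.00216). Adjusted p ran from 0.000265 to 0.00608 over the fits without 1 mouse, and the call was lost with the epithelium score (0.36, adjusted p = 0.0694). Exons of Slc4a2 also overlap exons of Fastk on the opposite strand.

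The sodium/bicarbonate cotransporter Slc4a4 (NBCe1), which brings bicarbonate into colonic cells from the blood side, had 41.0, 91.9 and 148 CPM in control and 63.0, 143 and 153 CPM in GWI colons. Of the 8 GWI mice, 7 lay at 124 CPM or more, and GWI 5 was far below them, while Control 1 was the lowest control and Control 9 the highest. The log2 fold change was 0.45 (SE 0.20, adjusted p = 0.0923). It passed the threshold without GWI 5 (0.55, adjusted p = 0.0255) and without Control 9 (adjusted p = 0.0339), as it did with the epithelium score as a covariate (0.89, adjusted p = 0.0446), whereas the smooth muscle score took it to 0.092 (adjusted p = 0.700). With Control 1 and GWI 5 both out, chosen after seeing the data, it was 0.45 with an adjusted p of 0.00583.

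Slc4a7 (NBCn1), an electroneutral sodium/bicarbonate cotransporter, had close medians, 129 CPM in control and 128 CPM in GWI colons, within ranges of 101 to 299 CPM and 107 to 232 CPM. Control 9 was the highest control, and GWI 2 (232 CPM) and GWI 6 (217 CPM) stood above the other GWI mice. Its log2 fold change was -0.013 (SE 0.22, adjusted p = 0.971), and its sign was positive without Control 6, Control 9 or GWI 1, 3, 4, 7 or 8, at most 0.19. Slc4a3 (AE3), an exchanger of excitable cells, had medians of 14.7 CPM in control and 7.89 CPM in GWI colons. Its log2 fold change of -0.73 (adjusted p = 0.0819) passed the threshold without Control 8 (adjusted p = 0.0294) or Control 9 (0.0325) and in the DESeq2 Wald test (-0.74, adjusted p = 0.0464), and it was 0.17 with the smooth muscle score (adjusted p = 0.323). Slc4a8 and Slc4a11 were low and had log2 fold changes of -0.33 and -0.40. Slc4a1 (AE1, the erythrocyte exchanger), Slc4a5, Slc4a9 and Slc4a10 were not tested. Slc4a1 had at most 3 counts in any mouse and Slc4a10 between 4 and 20.

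The sodium/calcium exchangers move calcium out of cells in exchange for sodium, and Slc24 members move potassium along with it. Per kilobase of annotated exon, Slc24a3 (NCKX3; chr2:145167754-145642166, + strand) had the highest median of these in both groups. It stood at 35.1, 102 and 263 CPM in control and at 46.6, 52.8 and 104 CPM in GWI colons. Most controls lay above most GWI mice, but the lowest mouse of all was Control 8, and GWI 8 (104 CPM) and GWI 5 (85.8 CPM) fell among the controls. Slc24a3 was lower in GWI colons, with a log2 fold change of -0.89 (SE 0.31, adjusted p = 0.0392). The call was lost without Control 2, 3, 4 or 6 or GWI 1, 2, 3, 4, 6 or 7, with adjusted p between 0.0521 and 0.0843; without Control 6, its highest mouse, the value was -0.64.

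Slc24a3 had its highest level in Control 6, the mouse with the highest smooth muscle sum (23923 CPM). With the smooth muscle score as a covariate, the log2 fold change of Slc24a3 was -0.094 (adjusted p = 0.718). It was -1.02 with the epithelium score (adjusted p = 0.110), -0.87 with the replicate block (adjusted p = 0.123) and -0.90 with no filter on low counts (adjusted p = 0.0538). How much of the difference in Slc24a3 goes with the amount of muscle in each piece cannot be told apart from a difference within muscle cells.

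Slc8a1 (NCX1), the main sodium/calcium exchanger of heart and smooth muscle, had 29.6, 39.8 and 82.8 CPM in control and 53.2, 56.7 and 79.8 CPM in GWI colons. Of the 9 controls, 7 lay below each GWI mouse; Control 1, the highest, and Control 6 (61.1 CPM) did not. The log2 fold change was 0.46 (SE 0.18, adjusted p = 0.0594), and it passed the threshold without Control 1 (0.63, adjusted p = 0.00283) and without Control 6 (adjusted p = 0.0401). It passed too in the DESeq2 Wald test (0.46, adjusted p = 0.0494) and with the smooth muscle score (0.69, adjusted p = 0.00955), but with the epithelium score it was 0.079 (adjusted p = 0.798). Slc8a2 and Slc8a3, both known from neurons, had log2 fold changes of -0.64 (adjusted p = 0.222) and -0.74 (adjusted p = 0.253). Slc8a2 changed sign and passed as higher with the smooth muscle score (0.47, adjusted p = 0.0411), and Slc8a3 passed as lower with the epithelium score (-1.72, adjusted p = 0.0484). Slc8a3 was highest in Control 1 (12.1 CPM) and GWI 5 (6.37 CPM), and its value was -0.27 without the first and -1.19 without the second. The summed enteric neuron genes were also the highest of each group in these mice, at 527 CPM in Control 1 and 359 CPM in GWI 5.

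The remaining Slc24 genes were scarce. Slc24a2 had a log2 fold change of -0.35 (adjusted p = 0.457). Slc24a5, known from pigment cells, had medians of 0.987 CPM in control and 0.547 CPM in GWI colons and a log2 fold change of -0.64 (adjusted p = 0.167). Its highest GWI mouse was GWI 2 at 1.53 CPM, and without GWI 2 the value was -0.96 (adjusted p = 0.0415). With the smooth muscle score it was -1.05 (adjusted p = 0.0143). Of the 2330 exon bases of Slc24a5, 921 overlap exons of Myef2 on the opposite strand. Slc24a1 and Slc24a4, with at most 6 counts in any mouse, did not pass the filter on low counts. In the fit with no filter, Slc24a1 was called lower.

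Levels can be compared between genes only per length, here as median CPM per kilobase of annotated exon. In control colons the order began with Slc26a3 (63.2), Slc26a2 (49.6), Slc12a2 (46.2), Slc9a2 (42.8), Slc4a2 (23.2), Slc24a3 (22.4) and Slc12a8 (17.6). In GWI colons Slc9a2 came first (76.2), ahead of Slc26a2 (71.8), Slc26a3 (70.6), Slc4a2 (42.4) and Slc12a2 (41.9). The first 4 control medians and all the GWI medians just named lie within the spread that Slc26a3 alone showed between mice of the same group, so their order is loose. Slc9a3 ranked 12th of the 32 in control colons (4.61), well below Slc9a2 on the same scale, and its GWI median was 11.6. Slc9a2 was above Slc9a3 per kilobase in 16 of the 17 mice; in Control 1 the order was turned, with 102 for Slc9a2 and 111 for Slc9a3.

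Ratios within a library do not depend on how libraries are scaled, and 3 were tested by an exact two-sided permutation of the 24310 arrangements of mice, with p-values adjusted over the 3. The log2 ratio of CPM of Slc26a3 to Slc9a3, chloride/bicarbonate against sodium/hydrogen exchange, was 1.87, 3.69 and 5.48 in control and 1.63, 2.43 and 4.53 in GWI colons. The groups overlapped, with Control 1 the lowest control and Control 9 the highest. The mean was 3.76 ± 1.06 in control (SD, n = 9) and 2.72 ± 0.99 in GWI colons (SD, n = 8), a difference of -1.03 (exact permutation p = 0.0575, adjusted 0.173). Without Control 1 the difference was -1.27 (adjusted exact p = 0.042), and without GWI 2 it was -1.29 (adjusted exact p = 0.0464).

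The log2 ratio of Slc12a2 to Slc26a3, chloride uptake for secretion against apical chloride absorption, differed less between groups than within them. It ran from -3.55 in Control 1 to 1.99 in Control 7 and from -2.06 to 2.12 in GWI colons. The difference of means was -0.20 (exact permutation p = 0.785, adjusted 0.785), and it was positive without Control 7 (0.016) or GWI 5 (0.096). For Slc9a2 against Slc9a3 the log2 ratio had medians of 3.51 in control and 2.87 in GWI colons, with Control 1 the lowest of all mice at 0.22. The difference was -0.34 (exact permutation p = 0.518, adjusted 0.777), and without Control 1 it was -0.71 (adjusted exact p = 0.042).

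Genes that regulate these carriers or work beside them were taken from a list, and 37 are described, of which 35 were tested. In GWI colons 7 were higher (20%, against 13.4% of all genes) and 2 lower (5.71%, against 13.5%), and the median of the 35 log2 fold changes was 0.21. The count of higher genes was 15 without Control 1, where 17.9% of all tested genes were higher, and from 6 to 9 without any other mouse, where 10.4% to 16.1% were. The count of lower genes was 3 without Control 1 or 4, 1 without Control 6 or GWI 2, 6 or 7, and 2 without any of the other mice, beside 9.21% to 16.3% of all genes over these fits. In the DESeq2 Wald test 10 of the list were higher and 3 lower, where 15.3% and 17.3% of all genes were. With the smooth muscle score as a covariate 12 of the list were higher and 1 lower, where 18.1% and 19.8% of all genes were. With the epithelium score 1 of the list was higher and 1 lower, where 3.01% and 2.09% of all genes were. None of the 7 passed there: Gucy2c (0.52, adjusted p = 0.0535) and Kcnq1 (0.83, adjusted p = 0.0819) were close to or above their values in the main fit, while Sgk1 (0.76), Slc5a8 (0.55), Car12 (0.48), Pdzd3 (0.20) and Hsd11b2 (0.13) were smaller, with adjusted p between 0.0606 and 0.590. With the replicate block 4 calls were lost: Pdzd3 0.47 (adjusted p = 0.0539), Kcnq1 0.51 (0.165), Atp12a -1.32 (0.0508) and Kcnma1 -0.59 (0.0541).

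Sgk1, a kinase induced by aldosterone and glucocorticoids that acts on sodium channels and NHE3, had the largest difference among those higher. It stood at 32.6, 46.7 and 94.0 CPM in control and at 60.6, 134 and 163 CPM in GWI colons. In 6 of 8 GWI mice Sgk1 was above every control. Its log2 fold change was 1.27 (SE 0.22, adjusted p = 0.00109). Hsd11b2, which shields the mineralocorticoid receptor from glucocorticoids, was higher by 0.64 (adjusted p = 0.0127), whereas the receptor gene Nr3c2 was at 0.32 (adjusted p = 0.0785; 0.0108 without Control 9).

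Gucy2c, the guanylate cyclase receptor for guanylin on epithelial cells, was higher by a log2 fold change of 0.57 (adjusted p = 0.00264), with 7 of 8 GWI mice above every control. The guanylin genes Guca2a and Guca2b were at -0.054 (adjusted p = 0.836) and -0.18 (adjusted p = 0.541). Car12, a carbonic anhydrase at the basolateral membrane, was higher by 0.67 (adjusted p = 0.0048), and Pdzd3, a scaffold for apical carriers, by 0.47 (adjusted p = 0.00976). Slc5a8, a sodium-coupled carrier of short-chain fatty acids, was higher by 0.68 (adjusted p = 0.0171). The potassium channel gene Kcnq1 was higher by 0.63 (adjusted p = 0.04), a call lost without Control 4 or 6 or GWI 1, 2, 3, 4, 6 or 7 (adjusted p between 0.0534 and 0.0874). It was lost too with upper-quartile scaling (0.53, adjusted p = 0.0813), with no filter on low counts (0.63, adjusted p = 0.0509) and with the smooth muscle score (0.38, adjusted p = 0.285).

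The 2 lower genes of this list handle potassium. Atp12a, the colonic hydrogen/potassium pump, ran 2.32, 8.47 and 27.3 CPM in control and 1.93, 3.16 and 6.05 CPM in GWI colons. Its log2 fold change was -1.42 (SE 0.38, adjusted p = 0.0127), -0.68 with the smooth muscle score as a covariate (adjusted p = 0.142) and -2.37 with the epithelium score (adjusted p = 0.00405). Without Control 1 it was -1.06 (adjusted p = 0.0149), the smallest in size of the 17 fits without 1 mouse, all of which kept the call. Kcnma1, a calcium-activated potassium channel gene of epithelium and smooth muscle, was at -0.55 (adjusted p = 0.0305) and -0.15 with the smooth muscle score (adjusted p = 0.407), and its call was lost as well with the epithelium score (-0.60, adjusted p = 0.0944). The call of Kcnma1 was lost without Control 6 or GWI 2, 6 or 7 (adjusted p between 0.0523 and 0.0644).

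The chloride and sodium channel genes gave no call in the edgeR fit with all mice. Cftr, the apical chloride channel of secretion, had 59.3, 104 and 191 CPM in control and 92.7, 133 and 175 CPM in GWI colons, with a log2 fold change of 0.21 (adjusted p = 0.399). Scnn1a, a subunit of the epithelial sodium channel, was at 0.35 (adjusted p = 0.522), with 197 CPM in Control 1 against a control median of 32.4 CPM. Without Control 1, Scnn1a was at 1.00 (adjusted p = 0.00273). Clcn2 (0.40 with all mice) and Car4 (also 0.40) likewise passed without Control 1, with log2 fold changes of 0.80 (adjusted p = 0.00357) and 1.06 (adjusted p = 0.00271). Atp1b1, a pump subunit gene, was at 0.19.

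Promoter sequences from RefSeq (GRCm38.p6, 250 bases before to 50 after each gene start) were searched for the E-box CACGTG and the cAMP response element TGACGTCA. Both are their own reverse complement. Of the 8 called carriers, 6 had an entry (not Slc26a2 or Slc9a2), and 2 of these, Slc12a7 and Slc12a9, held an E-box, as did 8.09% of all 27025 genes with an entry. None of the 6 held the cAMP response element, which 2.03% of genes held. Of 26 tested carriers with an entry, 5 held an E-box. A match describes the sequence only, and binding was not measured.

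The windows are shown for both called carriers and for Slc9a3, which was added after its values were seen, with the E-box in capitals. The Slc12a7 window, chr13:73763629-73763694 on the + strand, lies inside the annotated span of the gene at a RefSeq start and reads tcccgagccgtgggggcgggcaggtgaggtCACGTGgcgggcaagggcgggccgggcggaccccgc. The Slc12a9 window, chr5:137333653-137333718 on the - strand, lies upstream of the annotated gene and reads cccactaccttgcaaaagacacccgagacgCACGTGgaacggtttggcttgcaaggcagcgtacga. The Slc9a3 window, chr13:74121296-74121361 on the + strand, also lies upstream of its gene and reads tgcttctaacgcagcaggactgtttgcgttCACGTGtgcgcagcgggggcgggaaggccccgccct.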

How the data were processed

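Bulk RNA of 17 colons, 9 control and 8 GWI, had been sequenced after poly(A) selection. The authors trimmed reads with Trimmomatic 0.36, aligned them with STAR 2.5.2b to GRCm38 and deposited raw counts of uniquely assigned reads per gene symbol. The annotation release and strand setting are not given in the sources used here. Counts were fitted over the whole table in edgeR 4.0.16 (R 4.3.3; filterByExpr, TMM factors, robust quasi-likelihood F test), with group as the only term and Benjamini-Hochberg adjustment over 14146 genes. A gene was called at an adjusted p under 0.05. Each SE was derived as the size of the log2 fold change divided by the square root of the F statistic. Ratios were tested by exact two-sided permutation in Python 3.11.15. Alternatives used other scalings, filters, covariates (the mean log2 CPM of the epithelium or smooth muscle list), a replicate block, DESeq2 1.42.0 and each mouse left out. Sample names share first parts (such as 4A and 4B) whose meaning is not given and which were not modelled. Positions and exon lengths came from a GENCODE annotation of GRCm38.

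Of the genes that fit the rule or the regulator list, 3 carriers and 1 regulator are not reported here. Named in full were carriers known for colonic chloride, bicarbonate and sodium movement, and each further carrier past the threshold; the rest were given briefly, and of the regulators those past the threshold. Members, marker lists and regulators were chosen with earlier results of these data known. The p-values set the difference between groups against the variation between these mice, which the edgeR fit estimates with help from all tested genes. On drawn counts with changes put in, the same fit called 70.7% of genes changed by 1 log2 unit and 0.0505% of unchanged genes. Those counts were drawn separately for each gene, with no mouse set apart across genes, so these rates need not hold in these libraries.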

Additional observations from a re-analysis of the deposited data

Results flagged for a closer look

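In each group of the 32 tested carriers, 64 groups in all, the gap between the highest or lowest mouse and its nearest neighbour was divided by the range of the group. In 10 groups 1 mouse lay farther out than the 95% critical value of Dixon's test allows. About 1 in 20 groups of normally distributed values would pass it. The CPM were not put on a log scale here, and the rate for such values was not measured. The groups share mice, so these are not 10 separate observations.

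Control 1 was the far mouse in 4 groups of controls, each time the highest: Slc9a3, where the gap took 0.957 of the range, Slc26a3 (0.702), Slc8a3 (0.650) and Slc9a2 (0.579). GWI 5 was far above the other GWI mice in Slc9a3 (0.617) and Slc8a3 (0.594) and far below them in Slc4a4 (0.676). These mice also had the highest summed distal colon Hox genes. Control 9 was far above the other controls in Slc4a7 (0.629). Control 7 stood highest among controls in Slc26a6 (0.613), and GWI 2 among GWI mice in Slc24a5 (0.678). What set these mice apart was not tested.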

How the results depend on the processing

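The count of carriers higher in GWI was 6 with DESeq2's size factors (13.1% of all genes), 6 of 25 tested with at least 10 counts in every mouse (14.0%), 5 of 44 with no filter (8.4%), 4 with the replicate block, which compares mice of the same number (10.0%), 9 in the DESeq2 Wald test (15.3%) and 8 with the smooth muscle score (18.1%). It was 3 with upper-quartile factors (8.58%), 3 with the epithelium score (3.01%), 1 by the study's threshold on edgeR values (0.650%) and 2 by it on DESeq2 Wald values (0.763%), a count added after seeing the data. The count lower was 0 with the replicate block (5.84% of all genes), 1 with the epithelium score (2.09%), and by the study's threshold 1 on edgeR values (1.77%) and 0 on DESeq2 Wald values (1.87%). Leaving out each mouse in turn gave 4 to 8 higher (10.4% to 17.9% of all genes) and 0 to 4 lower (9.21% to 16.3%). Chosen after seeing the data, leaving out Control 1 and GWI 5 gave 9 higher and 3 lower (17.4% and 17.5% of all genes), Control 6 and 7 gave 4 and 0 (10.1% and 9.56%), and Control 1, 6, 7 and 9 with GWI 5 gave 10 and 4 (19.4% and 19.7%). The causes were not tested.

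Slc12a7 and Slc9a8 were called in each of these fits, other than by the study's threshold. Several log2 fold changes changed sign, none of them of a gene called in the edgeR fit with all mice. With the smooth muscle score they were Slc12a4 0.010, Slc12a8 -0.076, Slc24a2 0.18, Slc26a3 0.33, Slc4a3 0.17, Slc4a8 0.26, Slc8a2 0.47, Slc8a3 0.26, Slc9a3 1.38 and Slc9a7 0.38. With the epithelium score they were Slc12a2 0.74, Slc4a7 0.32, Slc9a3r1 -0.24 and Slc9a4 1.05. The replicate block gave Slc26a3 0.26, Slc4a7 0.14, Slc9a3 1.14 and Slc9a4 0.29. Slc9a3 was 1.5 in the DESeq2 Wald test. Without Control 1 and GWI 5, Slc26a3 was 0.20 and Slc9a3 1.33. Without Control 6 and 7, Slc4a7 was 0.013. With Control 1, 6, 7, 9 and GWI 5 out, Slc26a3 was 0.42, Slc4a11 0.066, Slc4a7 0.32, Slc9a3 1.05 and Slc9a4 0.26.

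Over single mice left out, the range was -0.35 to 0.50 for Slc26a3, -0.14 to 0.19 for Slc4a7, -0.46 to 1.63 for Slc9a3 and -0.21 to 0.20 for Slc9a4. For the ratios it was -1.29 to -0.82 (Slc26a3 to Slc9a3), -0.68 to 0.096 (Slc12a2 to Slc26a3) and -0.71 to -0.18 (Slc9a2 to Slc9a3).

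Nothing shows that equal replicate numbers pair mice: the correlations of their deviations from the group mean ran from -0.506 to 0.115. Upper-quartile factors moved the median of all genes from -0.056 to -0.15, and under them 8.58% of genes were higher and 21.2% lower. Covariate scores are made from the same libraries and differ between the groups, so those fits share signal with the exposure. Depth, at 16293537 counts or more a mouse, left 12 carriers too low to test, which does not show that they are absent.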

Other observations

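Genes of the circadian clock, listed because time of day was not given for the tissue, differed between groups: of 12 tested, 2 were higher and 7 lower in GWI colons, with a median log2 fold change of -0.59, where 13.4% of all tested genes were higher and 13.5% lower. Arntl, a core activator of the clock, ran from 4.57 to 16.1 CPM in control and from 14.3 to 45.5 CPM in GWI colons, and its log2 fold change was 1.72 (adjusted p = 0.000639). Control 1 (16.1 CPM) was the only control within the GWI range. Whether the tissue of both groups was taken at the same hour is not given, and the part of the hour in these values was not tested.

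Among the other marker lists, to be read beside the same shares of all genes, 3 of 8 surface colonocyte genes were higher and none lower (median 0.69), and of 6 goblet cell genes 1 was higher (median 0.022). Of 10 enteric neuron genes 1 was lower (median -0.58), and of 4 endothelial genes 1 was lower (median -0.44). Of 4 adipocyte genes 1 was higher (median 1.09). None of the tested erythroid genes (5) or immune genes (4) passed in either direction. Of the 5 small intestine genes tested, 1 was higher and 1 lower.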
